A study of Mus musculus with 2 samples.

Results

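The 10 genes described here encode factors of deep-layer and subplate neurons of the mouse neocortex: Tbr1, Bcl11a, Bcl11b, Fezf2, Sox5, Foxp1, Foxp2, Tle4, Zfpm2 and Ldb2. They were chosen by gene name, and all 10 were found among the 15643 genes of the deposited table. RNA sequencing was done on GFP-positive cells sorted from embryonic CD-1 mouse brain, with 1 library from a control plasmid and 1 from an Rbm3 knockdown plasmid. In both groups the plasmid was electroporated in utero at embryonic day 13, the dam was made hypothermic at embryonic day 14, and the cells were collected at embryonic day 15. Electroporated cells carry the plasmid in a mosaic cortex beside untouched neighbours, and how many embryos went into each library is not given in the sources used here, nor is any pooling. The series asks how the cold-inducible RNA-binding protein Rbm3 acts in cortical development under maternal hypothermia, and its title names Yap1.

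The neocortex is built from the inside outwards. Subplate neurons and the neurons of the deep layers are born first, and upper-layer neurons follow from the same radial glial progenitors. Subcerebral neurons of layer 5 send axons to the brainstem and spinal cord, and corticothalamic neurons of layer 6 send them to the thalamus. Which of these fates a young neuron takes is set by transcription factors that repress one another, among them Fezf2 and Bcl11b on the subcerebral side and Tbr1 and Sox5 on the corticothalamic and subplate side. Of the 10 members, Tle4, Zfpm2 and Ldb2 are cofactors that act through DNA-binding partners.

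Of these factors 7 had a higher level and 3 a lower one in the library labelled knockdown, mostly by less than 1.5-fold. Tbr1 was 2.02-fold higher, Bcl11b 1.64-fold and Bcl11a 1.53-fold. Sox5, Fezf2 and Tle4 were higher by less, Zfpm2 was nearly level, and Foxp1, Foxp2 and Ldb2 were slightly lower. With no replicate, each of these is a difference between 2 libraries, and the intervals below cover counting error only.

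Over the listed genes the control library summed to 17757555 reads and the knockdown library to 16823612. Rbm3 itself had 3242 and 2397 reads, 1.19-fold lower in the knockdown library (95% counting interval 1.13 to 1.25), so that library is called by its label. The log2 ratio of Rbm3, -0.25, lay inside the interquartile range of the measured genes described below (-0.30 to 0.32). Y-chromosome genes (Eif2s3y, Ddx3y, Kdm5d and Uty) summed to 2558 reads in the control library against 0 with the knockdown plasmid. Choroid plexus markers summed to 646.8 and 20.4 CPM (reads per 1e6 reads of the library on TMM-scaled totals, a scaling that treats the bulk of genes as equal). Meningeal markers summed to 922.5 and 288.3 CPM, of which Zic1 alone gave 218.5 and 235.0 CPM. Immediate early genes summed to 150.4 and 1056 CPM. Median log2 ratios were -3.56 for choroid plexus, -4.02 for meningeal, -2.04 for erythroid, -1.67 for endothelial, -0.72 for mural, 0.07 for microglial and -0.03 for oligodendrocyte precursor markers. Transcripts encoded in mitochondria took 3.37% and 1.89% of reads. The part of these differences in the values below was not tested.

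The stretches before the annotated start are shown for the 3 members with the highest ratios, and for Fezf2 as a member with a smaller ratio. They come from RefSeq promoter windows (GRCm38.p6), which hold 250 bases before the start. Bases inside an annotated untranslated or coding exon of the gene in GENCODE M21 were left out. Capitals mark matches on either strand to CANNTG (the E-box of basic helix-loop-helix factors), TAATTA (a homeodomain core) and TGANTCA (the AP-1 element). The stretches are chr2:61804203-61804452 (plus strand) for Tbr1, chr11:24080445-24080669 (plus strand) for Bcl11a, chr12:108003603-108003664 (minus strand) for Bcl11b and chr14:12345960-12346115 (minus strand) for Fezf2. The Tbr1, Bcl11a and Fezf2 stretches lie inside the GENCODE span of their genes, and the Bcl11b stretch lies just outside its own. The Tbr1 stretch also lies in an exon of an alternative transcript with no coding sequence annotated. Of the 10 member windows, 7 had the bases after their start in a GENCODE transcript of the gene.
Tbr1: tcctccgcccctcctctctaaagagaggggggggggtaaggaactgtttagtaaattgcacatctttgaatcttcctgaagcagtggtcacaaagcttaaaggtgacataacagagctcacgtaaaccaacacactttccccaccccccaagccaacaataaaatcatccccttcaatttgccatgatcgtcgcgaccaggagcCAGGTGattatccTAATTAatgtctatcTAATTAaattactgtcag
Bcl11a: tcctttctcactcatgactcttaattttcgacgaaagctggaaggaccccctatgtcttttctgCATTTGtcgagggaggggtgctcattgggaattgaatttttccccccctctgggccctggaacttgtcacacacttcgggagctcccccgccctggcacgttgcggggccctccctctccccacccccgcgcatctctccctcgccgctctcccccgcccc
Bcl11b: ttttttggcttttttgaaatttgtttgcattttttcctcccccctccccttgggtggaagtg
Fezf2: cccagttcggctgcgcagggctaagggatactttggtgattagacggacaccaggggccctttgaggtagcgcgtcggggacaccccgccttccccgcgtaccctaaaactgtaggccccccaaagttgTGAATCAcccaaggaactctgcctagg

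The 4 windows shared little beyond their place. Tbr1 had 1 E-box, beginning 46 bases before the start, followed by TAATTA at 33 and at 18 bases before it. Bcl11a had 1 E-box at 186 bases before its start, and neither Bcl11b nor Fezf2 had one in the whole window of 250 bases. Fezf2 had the 1 AP-1 match among all member windows, at 121 bases before its start. Of 32851 RefSeq windows of this length, 66.2% hold CANNTG, 4.84% hold TAATTA and 6.75% hold TGANTCA, so an E-box is the common case. The letters GGAATG, the core bound by TEAD factors, the partners of Yap1, occur in 12.6% of windows. They were found before Sox5, at 102 and 9 bases, and in 1 of the 3 windows of Foxp1, and not in the windows of Tbr1, Bcl11a, Bcl11b, Fezf2 or Tle4. The T-box half-site AGGTGT, present in 11.8% of windows, was in no member window, and with the E-box it can overlap in CAGGTGT. Foxp2, Zfpm2 and Ldb2 had no window in the table. A match is a description of letters and not a binding site.

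Tbr1 (ENSMUSG00000035033.9, GRCm38 chr2:61802930-61814114, plus strand) encodes a T-box factor that gives layer 6 corticothalamic and subplate neurons their identity. The control library gave 3941 reads (213.7 CPM) and the knockdown library 6988 (431.3 CPM), 2.02-fold higher (1.94 to 2.10). The interval straddles 2-fold, and on the deposited RPKM (reads per kilobase of gene, scaled to depth), which use the library totals with no further scaling, the ratio was 1.87. Its log2 ratio of 1.01 exceeded that of 97.9% of the 12140 measured genes, those with a mean of at least 5 CPM. The authors' deposited table gives Tbr1 a p-value of 0.125 (0.990 after Benjamini-Hochberg adjustment), outside the threshold they state.

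The zinc finger factors of subcerebral neurons were also on the high side, and Bcl11b more so than Fezf2, which lies upstream of it. Fezf2 (ENSMUSG00000021743.5, chr14:12342094-12348189, minus strand), which selects the subcerebral fate and is already made in early progenitors, had 2010 and 2179 reads, 1.23-fold higher (1.16 to 1.31). Bcl11b (ENSMUSG00000048251.9, chr12:107910403-108003602, minus strand), known as CTIP2 and needed for the outgrowth of corticospinal axons, had 5133 reads against 7377 with the knockdown plasmid, 1.64-fold higher (1.58 to 1.70). Its paralogue Bcl11a (ENSMUSG00000000861.9, chr11:24078056-24174123, plus strand), known as CTIP1 and needed in mice for deep-layer projection identity and radial migration, had 5546 and 7433 reads, 1.53-fold higher (1.47 to 1.58). An antisense gene within the Bcl11a locus, 4930538E20Rik, had 744 and 596 reads. Whether counting used strand is not given in the sources used here, so reads of Bcl11a and of that gene cannot be told apart where they overlap.

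Sox5 (ENSMUSG00000041540.10, chr6:143828425-144781977, minus strand), a SoxD factor that sets the order in which subplate, layer 6 and layer 5 neurons arise, had 2696 reads with the control and 3104 with the knockdown plasmid. It was 1.31-fold higher (1.24 to 1.38). Its annotated antisense transcript Sox5os1 had 38 and 68 reads, few beside those of Sox5. Tle4 (ENSMUSG00000024642.10, chr19:14448150-14598051, minus strand), a Groucho corepressor and marker of corticothalamic neurons, had 1430 and 1543 reads, 1.23-fold higher (1.14 to 1.32). Zfpm2 (ENSMUSG00000022306.8, chr15:40655035-41104592, plus strand), also called FOG2, a zinc finger cofactor of GATA and COUP-TF proteins found in layer 6, had 511 and 488 reads. Its ratio was 1.09 (0.958 to 1.23), and it was the 1 member whose counting interval held equality.

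The forkhead pair was lower, by nearly the same ratio. Foxp1 (ENSMUSG00000030067.11, chr6:98925338-99522721, minus strand), a repressor made in early progenitors, projection neurons and the striatum, had 1818 reads against 1451 with the knockdown plasmid, 1.10-fold lower (1.03 to 1.18). Foxp2 (ENSMUSG00000029563.10, chr6:14901349-15441977, plus strand), its layer 6 and striatal paralogue, had 1395 and 1100 reads, 1.11-fold lower (1.03 to 1.21). Ldb2 (ENSMUSG00000039706.7, chr5:44472132-44799680, minus strand), an adaptor of LIM-homeodomain proteins found in layer 5 neurons, had the lowest ratio of the 10. It had 774 and 526 reads, 1.29-fold lower (1.16 to 1.45). All 10 members had at least 488 reads in each library, so the ratios are narrow in counting error, and the spread between embryos was not measured.

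**Figure D1:**
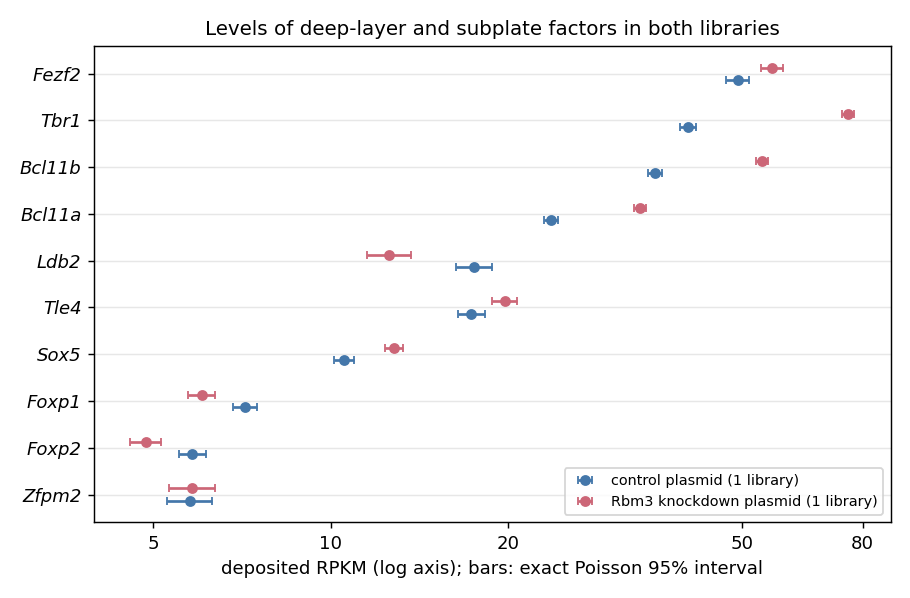
Deposited RPKM (log axis) of each of the 10 factors in the control library (blue) and the Rbm3 knockdown library (red), with exact Poisson 95% intervals from the reads. Tbr1 had 40.4 RPKM with the control and 75.6 with the knockdown plasmid, above Fezf2 there, and Zfpm2 lay at 5.78 and 5.83 RPKM.

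The order of levels per length differed between the libraries at the top and in the middle. In the control library Fezf2 was highest at 49.1 RPKM, followed by Tbr1 at 40.4, Bcl11b at 35.6 and Bcl11a at 23.7. In the knockdown library Tbr1 was highest at 75.6 RPKM, and Fezf2 at 56.2 and Bcl11b at 54.0 had overlapping counting intervals. Below these, Ldb2 and Tle4 could not be told apart in the control library (17.5 and 17.3 RPKM), whereas in the knockdown library Tle4 was at 19.7 RPKM and Ldb2 at 12.6, beside Sox5 at 12.8. Foxp1, Foxp2 and Zfpm2 were the 3 lowest in both libraries, at 4.85 to 7.17 RPKM. Tbr1 made up 19.0% of the members' summed RPKM with the control and 26.9% with the knockdown plasmid.

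These levels came from cells labelled as neural stem cells, and both libraries held neuronal transcripts at high levels. Tubb3, a tubulin of young neurons, had 1152 RPKM with the control and 1067 with the knockdown plasmid, and Dcx, a microtubule protein of migrating neurons, had 72.4 and 109.5 RPKM. Sox2, a factor of neural stem cells, had 57.9 and 58.8 RPKM, and Pax6, of cortical radial glia, had 9.14 and 6.54. In bulk RNA, fewer cells of a type and less RNA per cell cannot be told apart.

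**Figure D2:**
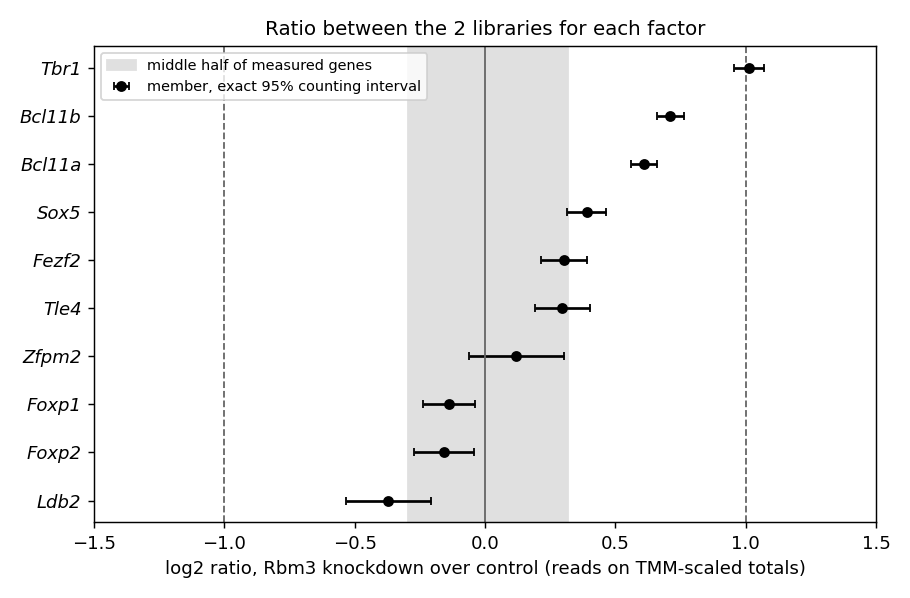
Log2 ratio of the Rbm3 knockdown over the control library for each factor, from reads on TMM-scaled totals with no pseudocount, with exact 95% counting intervals. The grey band is the interquartile range of measured genes and the dashed lines mark 2-fold. Tbr1 lies on the upper 2-fold line and Ldb2 is lowest.

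Counted at 2-fold on the log2 ratio, which had 0.5 CPM added to each library, 1 member was higher (Tbr1), 0 were lower and 9 lay between. Over all 12140 measured genes, 2.13% were at least 2-fold higher and 4.51% at least 2-fold lower. At 1.5-fold, 3 members were higher (Tbr1, Bcl11b and Bcl11a) and 0 lower, where the background was 9.13% higher and 12.4% lower. A log2 ratio above 0 was found for 7 of 10 members and for 53.1% of measured genes. The members' median log2 ratio was 0.30 beside 0.03 for all measured genes, whose interquartile range ran from -0.30 to 0.32. Of the members, 5 lay inside that range, Tbr1, Bcl11b, Bcl11a and Sox5 above it and Ldb2 below it. The counting interval excluded equality for 9 of 10 members, and for 72.4% of measured genes, so at this depth that alone sets no gene apart. Of the 10 members, 0 passed the threshold that the authors state (p below 0.05, log2 fold change beyond 1 either way) on the values of the authors' deposited table, against 7.87% of listed genes.

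Transcription factors in general are set beside the members here, with no test of the difference. The 463 measured genes that the deposited annotation marks with sequence-specific DNA-binding transcription factor activity, 4 of the 10 members among them, had a median log2 ratio of 0.15 and an interquartile range of -0.17 to 0.43. Of these, 3.89% were at least 2-fold higher, and 3.67% at least 2-fold lower. At 1.5-fold, 65 of the 463 were higher, beside 3 of the 10 members and 9.13% of all measured genes. The summed level of the 10 members was 1369.7 CPM against 1986.7 CPM with the knockdown plasmid, a ratio of 1.45 to which Bcl11a, Bcl11b and Tbr1 gave most.

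Ratios between factors within a library do not depend on how the libraries are scaled, but a correction for gene length changes them. With that correction Ldb2 had a log2 ratio of -0.26, above Foxp1 at -0.31 and Foxp2 at -0.32, so it was not the lowest. Fezf2 at 0.43 then lay above Sox5 at 0.22 and Tle4 at 0.24. The pair values given here are from reads without that correction. Of the 45 pairs of members, 39 had an exact counting interval that excluded equality, and 4 differed by at least 2-fold. The 45 pairs restate the ratios of 10 genes and are not independent, and pairs of other genes were not computed. The share of 72.4% of measured genes whose interval excluded equality is for single genes, a different measure. The count of 39 thus has no background beside it and is not read as a result about these pairs. Those 4 set Tbr1 or Bcl11b against a member at the low end. For each read of Ldb2 there were 5.09 of Tbr1 with the control and 13.3 with the knockdown plasmid, a 2.61-fold difference (2.32 to 2.94) and the most extreme of the 45. Tbr1 over Foxp1 differed by 2.22-fold (2.05 to 2.41), Tbr1 over Foxp2 by 2.25-fold (2.06 to 2.46) and Bcl11b over Ldb2 by 2.11-fold (1.88 to 2.38).

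Both paralogue pairs had nearly the same proportions in both libraries. The quotient of the knockdown over the control proportion is given for each. For each Bcl11b read there were 1.08 of Bcl11a with the control and 1.01 with the knockdown plasmid, a quotient of 0.933 (0.887 to 0.980). Foxp1 had 1.30 and 1.32 reads for each Foxp2 read, a quotient of 1.01 (0.910 to 1.13), an interval that holds equality. Fezf2 and Tle4, named after the values were seen as the pair closest to equality, had 1.41 reads to 1 in both libraries (quotient 1.00, 0.913 to 1.11).

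Ratios between subcerebral and corticothalamic factors did not all lie in one direction, and Tbr1 gained on both subcerebral factors in reads. For each Fezf2 read there were 1.96 of Tbr1 with the control and 3.21 with the knockdown plasmid, a 1.64-fold difference (1.52 to 1.76). Against Bcl11b, Tbr1 had 0.768 and 0.947 reads, a 1.23-fold difference (1.17 to 1.30). Fezf2 over Sox5, a factor that represses Fezf2 in mouse layer 6 and subplate neurons, had a quotient of 0.942 (0.869 to 1.02), an interval that holds equality. Tbr1 over Sox5, named after its values were seen as were the Bcl11b pairs that follow, differed by 1.54-fold (1.44 to 1.64). The subcerebral factor Bcl11b was in turn higher in the knockdown library against layer 6 members other than Tbr1, by 1.25-fold against Sox5 (1.17 to 1.33), 1.33-fold against Tle4 (1.23 to 1.44) and 1.82-fold against Foxp2 (1.67 to 1.99).

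**Figure D3:**
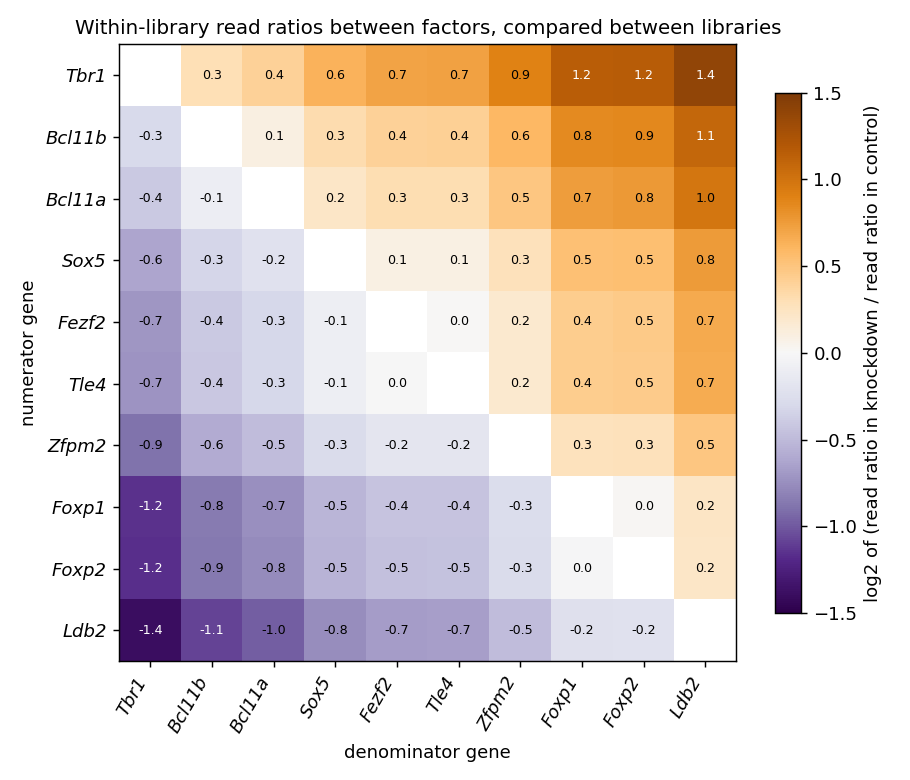
Log2 of the quotient of the within-library read ratio (row gene over column gene) in the Rbm3 knockdown over that in the control library, for the 10 factors. Orange cells are ratios that were higher in the knockdown library. The Tbr1 row is orange throughout, from a 1.23-fold difference against Bcl11b to 2.61-fold against Ldb2. This follows from Tbr1 having the highest and Ldb2 the lowest ratio of the 10 factors, and is not a separate result.

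Other gene lists place these values. Of 9 measured upper-layer factors, 4 were at least 2-fold higher and 0 lower. Their median log2 ratio was 0.68, with values from 0.08 (Mef2c) to 1.75 (Pou3f1). Pou3f1, Pou3f3 and Pou3f2, POU-domain factors of upper-layer neurons, were 3.40-fold (3.13 to 3.71), 3.08-fold (2.98 to 3.19) and 2.53-fold (2.40 to 2.66) higher. Cux2, a homeodomain factor of the upper layers, was 2.43-fold higher (2.30 to 2.57). The upper-layer list thus had the larger median, and the 2 lists overlapped in range, since Rorb at 0.22 and Mef2c lay below several deep-layer factors. Pan-neuronal genes had a median of 0.08, with 1 of 17 higher and 1 lower. Among these Neurod2, a factor of projection neurons, was 2.29-fold higher (2.22 to 2.36), and Gap43, of growth cones, 2.86-fold lower (2.76 to 2.97).

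Other genes of deep-layer and subplate neurons lay on both sides of equality, with 9 above it. Of 23 in the list, 22 were in the table and 19 measured. Of the measured genes 0 were at least 2-fold higher and 2 were lower, and the median log2 ratio was -0.02. Pcp4, Moxd1 and Inpp4b fell below the CPM minimum and are named after their values were seen. They had 22 and 5, 44 and 13, and 34 and 21 reads, each lower in the knockdown library. With no CPM minimum the median was -0.21. Crym, a thyroid hormone-binding protein of subcerebral neurons, had 365 and 105 reads, 3.05-fold lower (2.45 to 3.83). Pde1a, a phosphodiesterase, had 289 and 92 reads, 2.76-fold lower (2.18 to 3.53), and Ctgf, a secreted protein of the subplate that is also a common YAP target, 150 and 69 reads, 1.91-fold lower (1.43 to 2.58). On the high side, Tmem178, a membrane protein, had 513 and 823 reads, 1.83-fold higher (1.63 to 2.04). Wnt7b, a Wnt ligand of deep-layer neurons, and Syt6, a synaptotagmin of layer 6, both named after their values were seen, were 1.73-fold (1.66 to 1.81) and 1.55-fold (1.38 to 1.73) higher.

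**Figure D4:**
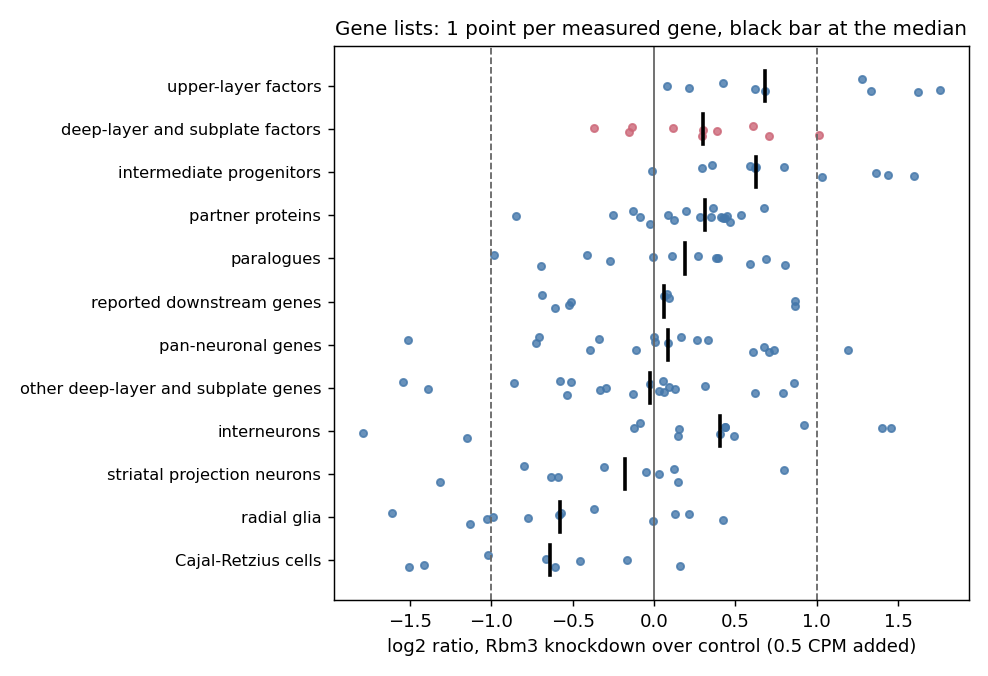
Log2 ratio of the Rbm3 knockdown over the control library with 0.5 CPM added, 1 point per measured gene, for 12 gene lists, with a black bar at each median. The deep-layer and subplate factors (red) have a median of 0.30, below the upper-layer factors at 0.68 and above the other deep-layer and subplate genes at -0.02. Intermediate progenitors (0.62), interneurons (0.40) and partner proteins (0.32) also have medians above that of the red points, and the remaining lists lie below it.

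Paralogues and partners of the members mostly lay within 2-fold. Of 12 measured paralogues 0 were higher and 0 lower, with a median log2 ratio of 0.19. Ldb1, the widely expressed relative of Ldb2, was 1.21-fold higher (1.17 to 1.25), opposite to Ldb2, and Aes, a short Groucho-like protein, was 1.33-fold lower (1.28 to 1.39). Named after their values were seen, Foxp4 was 1.31-fold higher (1.24 to 1.38), unlike Foxp1 and Foxp2, and the Groucho genes Tle1 and Tle3 were 1.61-fold (1.52 to 1.71) and 1.75-fold (1.67 to 1.84) higher, beside 1.23-fold for Tle4. Of the SoxD relatives of Sox5, also named after their values were seen, Sox6 was 1.31-fold higher (1.21 to 1.43), and Sox13, with 443 and 237 reads, was 1.64-fold lower (1.40 to 1.93), opposite to Sox5. Fezf1, the paralogue of Fezf2 and likewise named afterwards, had 151 and 63 reads, 2.11-fold lower (1.56 to 2.87) without the pseudocount, and missed the 2-fold call at a log2 ratio of -0.99 with it.

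Partner proteins, among them subunits of the chromatin complexes that Bcl11 proteins join, had a median log2 ratio of 0.32 over 18 measured genes. At 2-fold 0 were higher and 0 lower. Smarca4, the ATPase of the BAF remodelling complex, was 1.33-fold higher (1.30 to 1.36), and Chd4, of the NuRD deacetylase complex, 1.45-fold higher (1.41 to 1.48). Named after their values were seen, Mta2, also of NuRD, was 1.60-fold higher (1.53 to 1.67), and Nr2f2, a COUP-TF nuclear receptor of caudal and ventral forebrain cells, was 1.80-fold lower (1.70 to 1.91).

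Genes reported downstream of these factors in mouse cortex lay on both sides of equality. Of 9 measured, 0 passed 2-fold in either direction and the median was 0.06. Reln and Auts2 are both reported to depend on Tbr1. Reln, the secreted migration signal, had 5882 and 3387 reads, 1.53-fold lower (1.46 to 1.59), whereas Auts2 had 4974 and 7964, 1.82-fold higher (1.76 to 1.89). Reln is also a gene of Cajal-Retzius cells, whose list had 3 of 8 lower, 0 higher and a median of -0.64, with summed levels of 514.4 and 334.1 CPM. Named after their values were seen, Ephb1, an axon guidance receptor activated by Fezf2, was 1.44-fold lower (1.35 to 1.54), and Cntnap2, a reported Foxp2 target, 1.62-fold lower (1.49 to 1.76). Sema3c, which Bcl11a is known to repress, was also named after its values were seen and was 1.84-fold higher (1.67 to 2.01). The rest of the list, likewise named afterwards, was Grin2b, 1.43-fold lower (1.33 to 1.53), and Slc17a7, Crim1 and Mef2c. These last genes had ratios of 1.06, 1.04 and 1.06, each with a counting interval that held equality.

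Several members are also expressed outside the deep layers, so the markers of those cells stand beside them. Bcl11b, Foxp1 and Foxp2 are shared with striatal projection neurons. Of 10 measured striatal markers, 0 were at least 2-fold higher and 1 was lower. The median log2 ratio was -0.18, and it was 0.12 at a minimum of 20 CPM. The 12 listed striatal markers, measured or not, summed to 474.0 CPM against 641.1 CPM with the knockdown plasmid, most of it Meis2. Tac1, a neuropeptide gene, had 186 and 61 reads and was 2.68-fold lower, Rarb was 1.79-fold lower (1.44 to 2.22), Rxrg 1.58-fold lower (1.28 to 1.97) and Meis2, made in several forebrain cell types, 1.74-fold higher (1.67 to 1.80). No listed striatal marker was at 0 in either library. Tbr1 is shared with Cajal-Retzius cells, whose markers Trp73, Ndnf and Calb2 were 2.93-fold (2.46 to 3.50), 2.90-fold (2.14 to 3.97) and 2.05-fold (1.81 to 2.33) lower while Tbr1 was higher.

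Progenitor markers of the 2 kinds mostly lay in opposite directions. A log2 ratio above 0 was found for 3 of 12 radial glial markers (Sox2, Notch1 and Prom1) and for 10 of 11 intermediate progenitor markers. Of 12 radial glial markers 3 were at least 2-fold lower and 0 higher, and the median was -0.58, with summed levels of 2339 and 1444 CPM. Intermediate progenitor markers had 4 of 11 higher, 0 lower and a median of 0.62, with summed levels of 824.9 and 1404 CPM. Interneuron markers had 2 of 13 higher and 2 lower and a median of 0.40, with summed levels of 920.6 and 1176 CPM. The part of any of these cell types in the members' ratios was not tested.

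**Figure D5:**
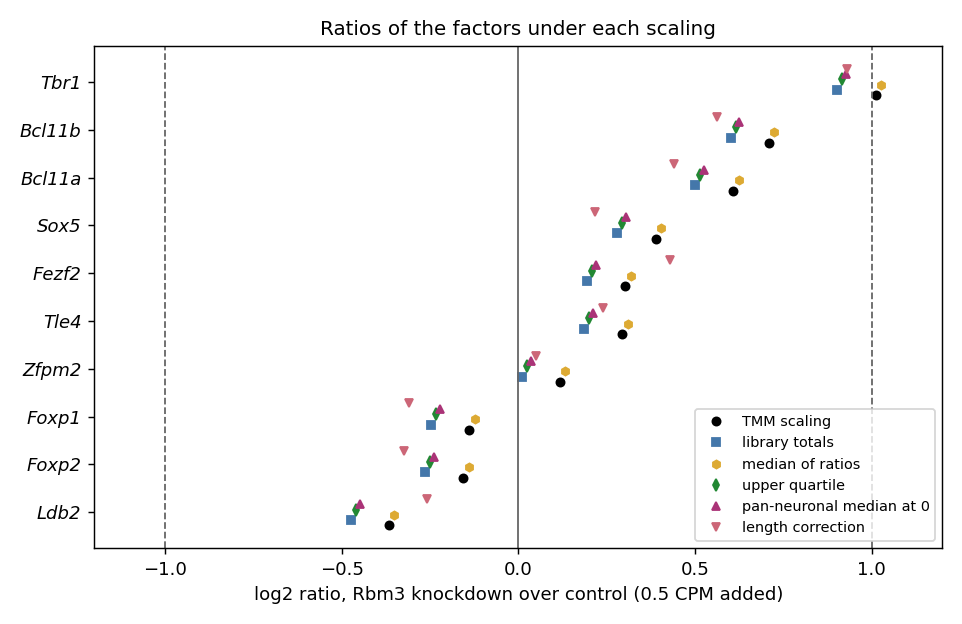
Log2 ratio of each factor under 5 other ways of scaling or correcting the libraries beside the TMM scaling (black circles), with dashed lines at 2-fold. Tbr1 lies at 0.90 to 1.03 and each factor keeps its side of 0, while Zfpm2 comes to 0.01 with library totals.

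The call of Tbr1 at 2-fold rests on the scaling. Its log2 ratio ranged from 0.90 to 1.03 over 8 alternatives, and it was below 1 with library totals, upper-quartile factors, the pan-neuronal median set to 0 or a correction for gene length. Bcl11b ranged from 0.56 to 0.72, Bcl11a from 0.44 to 0.62, Fezf2 from 0.19 to 0.43, Sox5 from 0.22 to 0.40 and Tle4 from 0.19 to 0.31. Foxp1 ranged from -0.31 to -0.12, Foxp2 from -0.32 to -0.14 and Ldb2 from -0.47 to -0.26, and Zfpm2 from 0.01 to 0.13. No member changed sign under these alternatives.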

How the data were processed

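One library per group was compared, with no replicate. The deposited table holds raw read counts per gene and RPKM values, per the file headers, beside the authors' log2 fold change, their log2 mean CPM, p-value and FDR. TopHat2 2.0.12, Bowtie 1.0.1 and HTSeq 0.6.0 are named in the submitters' processing notes, with no role stated. Build, annotation and strand setting: not given in the sources used here. edgeR's exact test at a preset dispersion of 0.1 returned the authors' p-values to within 4.55e-15, so their spread was assumed, not measured.

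Counts were scaled with TMM factors (1.04 control, 0.963 knockdown; edgeR 4.0.16, R 4.3.3), and log2 ratios used a pseudocount of 0.5 CPM, which understates ratios of low genes. A mean of at least 5 CPM made a gene measured. Folds have exact (Clopper-Pearson) 95% intervals without the pseudocount, and within-library ratios exact conditional intervals. Both cover counting error only, and PCR copies are not independent molecules. Calls are by size (2-fold), with no p-value. Gene length for the correction came from reads per RPKM (lowess, span 0.3; statsmodels 0.14.6). Positions come from GENCODE M21 (GRCm38) through the gene ID, with 15459 of the listed IDs matched. The calculation was tested on simulated data. Members and lists were chosen with earlier results of these data known. Named genes were the members and, per other list, up to 4 by size of log2 ratio (if none reached 2-fold, the 2 with most reads). A gene of the fixed upper-layer and partner lists is not reported here, and their values leave it out. Exceptions are marked, except Tubb3, Dcx, Sox2, Pax6, Mef2c, Rorb and the antisense genes, which were also named after their values were seen. Alternatives covered scaling, pseudocount, CPM minimum, fold threshold, length and the authors' log2 fold change.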

Additional observations from a re-analysis of the deposited data

How the results depend on the processing

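The 1 member at least 2-fold higher, Tbr1, went to 0 members with library totals, with upper-quartile factors, with the pan-neuronal median set to 0, with the length correction and at a 3-fold threshold, and the count was 3 at 1.5-fold. It stayed at 1 under the other alternatives, and the count lower was 0 under each of the 13. The members' median log2 ratio was 0.19 with library totals and otherwise 0.20 to 0.31. Library totals moved the median of all measured genes by -0.11 and gave 187 genes higher and 693 lower, against 259 and 547 with TMM. Measured genes higher and lower numbered 506 and 1384 with no CPM minimum, 429 and 1176 at 1 CPM, 143 and 153 at 20 CPM, 1108 and 1504 at 1.5-fold, and 59 and 185 at 3-fold, since these settings change which genes are counted. Medians of 6 lists changed sign between settings, running from -0.21 to 0.09 for the other deep-layer and subplate genes, -0.28 to 0.12 for striatal, -0.02 to 0.10 for pan-neuronal, -0.05 to 0.07 for downstream, -0.09 to 0.13 for microglial and -0.14 to 0.23 for oligodendrocyte precursor genes. That of the upper-layer factors ran from 0.57 to 0.71. No paired analysis was possible because each group has 1 library, and leaving out a library was not possible for the same reason. Depth was not the limit for the members, the least abundant of which had 488 reads.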
